A study of Homo sapiens with 6 samples.

Results

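The alpha and beta tubulins described here are 10 genes chosen by name: the alpha tubulin genes TUBA1A, TUBA1B, TUBA1C and TUBA4A, and the beta tubulin genes TUBB, TUBB2A, TUBB2B, TUBB3, TUBB4B and TUBB6. They were found by Ensembl identifier among the 60656 genes of the count table. No cut on measured values was used, but the choice was made with earlier results of these data known. All 10 had a row, and 8 had enough counts to enter the test across 10863 genes. TUBB2B and TUBB3 did not enter it.

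The libraries came from parental ZR-75-1 cells, an oestrogen receptor-positive human breast cancer line grown in RPMI-1640 with serum. The cells received 500 nM abemaciclib, an inhibitor of the cell cycle kinases CDK4 and CDK6, or an equal volume of DMSO, for 4 days, and there were 3 libraries per group. The question put to these samples was how the transcriptome of the parental cells responded to the drug. RB1 knockout cells, which the series also covers, were not analysed here.

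Microtubules are hollow polymers of dimers in which an alpha tubulin is paired with a beta tubulin. Human cells carry a family of alpha and beta genes, called isotypes, whose proteins are alike over most of their length and differ mainly at their carboxy-terminal tails. Dividing cells build the mitotic spindle from the widely expressed isotypes, whereas TUBB3, TUBB2B and TUBA1A are best known from neurons. Cells also adjust tubulin mRNA to the amount of free dimer: the nascent tubulin peptide is recognised as it leaves the ribosome, and the mRNA is then degraded through the CCR4–NOT deadenylase.

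The first codons are where this recognition is encoded, so they are shown for the members that changed, read from the GENCODE canonical transcripts, with the codon that differs between the types in capitals. TUBA1A and TUBA1C had the same 12 bases as TUBA1B, and TUBB4B had those of TUBB.
TUBA1B: atgcgtgagTGC
TUBA4A: atgcgtgaaTGC
TUBB: atgagggaaATC
TUBB2A: atgcgcgagATC
TUBB6: atgagggagATC
This codon was TGC in all 4 alpha genes and ATC in all 6 beta genes. Within each type it was the same in members that fell and in members that rose, and whether autoregulation acted on any of them was not tested. Among the beta genes the codons before it varied in bases that leave the encoded residues the same, and TUBB3 carried the 12 bases of TUBB6.

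Total counts were between 3317860 and 4013156 per library. Levels are given as CPM, which puts the counts of every library on the same total, with factors from the TMM method, so each is a share of the RNA in its library and not an amount per cell. In these bulk samples fewer cells of a type and less RNA per cell cannot be told apart. The libraries were made from the 3′ ends of mRNAs, which makes counts independent of transcript length, and levels of different tubulin genes were compared without dividing by it. MKI67, a marker of cycling cells, checked the treatment: it fell from 525.8 ± 31.4 to 5.00 ± 2.28 CPM (mean ± SD, n = 3). All 7 luminal breast markers had counts in the libraries, with summed levels of 6661 to 7275 CPM with DMSO and 7563 to 8640 CPM with abemaciclib. Among them ESR1 and KRT19 rose, with log2 fold changes of 0.83 (adjusted p = 2.92e-07) and 0.45 (adjusted p = 0.000207), KRT18 fell (−0.34, adjusted p = 0.00515), and GATA3, FOXA1, KRT8 and EPCAM did not pass the test. Of 8 markers of other cell types 7 were at 0 in every library, the exception being COL1A1, with 10.4 to 15.8 CPM with DMSO and 10.1 to 15.4 CPM with abemaciclib.

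The tubulin mRNAs that were most abundant fell with abemaciclib, and some of the scarce ones rose. Of the 8 members tested, 5 fell (62.5%), namely TUBA1B, TUBA1C, TUBB, TUBB4B and TUBB6, and 2 rose (25%), namely TUBA4A and TUBB2A. TUBA1A did not pass the test. Over all genes tested, 13.3% fell and 12.5% rose at the same threshold, an adjusted p of 0.05 in edgeR's quasi-likelihood test, and 25.7% passed in either direction. The CPM of the groups did not overlap for 7 of the 8 members, against 39.1% of all genes tested. The median log2 fold change of the members was −0.76, and that of all genes tested was −0.00178.

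**Figure D1:**
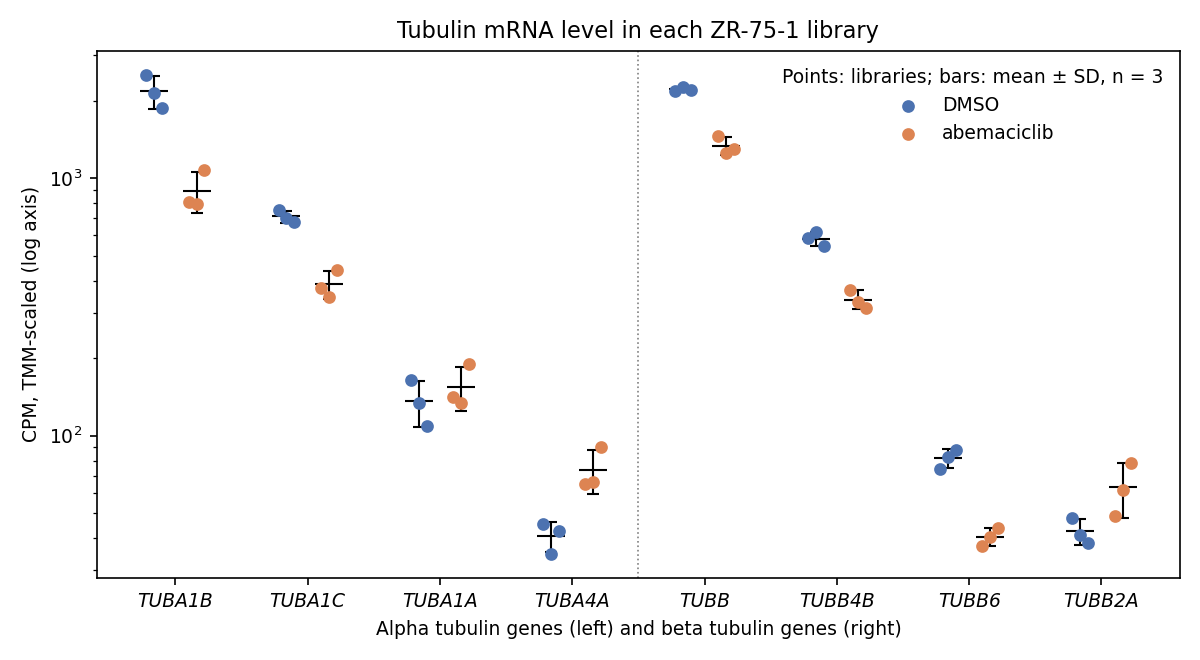
Level of the 8 tested tubulin genes in each library, in TMM-scaled CPM on a log axis, alpha genes on the left and beta genes on the right; points are libraries and bars are mean ± SD (n = 3 per group). The points of TUBA1B, TUBA1C, TUBB, TUBB4B and TUBB6 lie lower with abemaciclib, those of TUBA4A and TUBB2A lie higher, and those of TUBA1A overlap, with 109 to 164 CPM with DMSO and 134 to 189 CPM with abemaciclib.

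TUBA1B (ENSG00000123416, chr12:49127782-49131397 on the minus strand, GRCh38), an alpha isotype made in most dividing cells, was the most abundant alpha gene. It stood at 2523, 2135 and 1877 CPM in the DMSO libraries and at 811, 792 and 1078 CPM with abemaciclib. The groups did not overlap, and the highest treated library, replicate 3, was still well under the lowest control. The mean fell from 2179 ± 325 to 893.7 ± 159 CPM, 2.44-fold lower, with a log2 fold change of −1.29 (SE 0.11, adjusted p = 3.56e-10). This was the largest fall among the 8 members tested. In the genome the last 500 bases of TUBA1B lie wholly within the antisense lncRNA TUBA1B-AS1, whose row held at most 4 counts in any library.

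TUBA1C (ENSG00000167553, chr12:49188736-49274600, plus strand), its widely expressed neighbour on chromosome 12, was next in level. Its DMSO libraries held 752, 703 and 676 CPM and its abemaciclib libraries 375, 347 and 442 CPM. Again the groups were apart, and the treated libraries were ordered as for TUBA1B, with replicate 3 the highest and replicate 2 the lowest. The mean went from 710.3 ± 38.4 to 387.7 ± 48.6 CPM, a log2 fold change of −0.87 (SE 0.098, adjusted p = 6.55e-08).

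TUBA1A (ENSG00000167552, chr12:49184686-49189080, minus strand), the main alpha isotype of developing neurons, was measured at 164, 134 and 109 CPM with DMSO and at 141, 134 and 189 CPM with abemaciclib. Its groups overlapped. The log2 fold change was 0.18 with a 95% interval of −0.10 to 0.46 (adjusted p = 0.359), an interval that lies wholly above the estimates for TUBA1B and TUBA1C.

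TUBA4A (ENSG00000127824, chr2:219249710-219277902, minus strand) is the alpha isotype that is encoded without the carboxy-terminal tyrosine of the others. The DMSO libraries gave 45.2, 34.8 and 42.7 CPM and the abemaciclib libraries 65.0, 66.1 and 90.2 CPM. Every treated library lay above every control. The mean rose 1.80-fold, from 40.9 ± 5.47 to 73.8 ± 14.3 CPM (log2 fold change 0.85, SE 0.16, adjusted p = 0.000161). The last 500 bases of TUBA4A overlap STK16 on the opposite strand along their whole length. STK16, a membrane-associated kinase gene, held 97, 132 and 88 counts with DMSO and 149, 162 and 145 with abemaciclib, and its estimate of 0.40 on the log2 scale did not pass (adjusted p = 0.107). Whether the counting used strand is not given in the sources used here, and counting without it could not tell reads of the overlapping genes apart. At TUBA1B, whose last 500 bases are covered as fully by an antisense gene, the member held 2681 to 8700 counts in a library and the antisense row at most 4. How the counting handled strand at TUBA4A was not tested.

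TUBB (ENSG00000196230, chr6:30717435-30725538, plus strand), the class I beta tubulin of dividing cells, was the most abundant beta gene and varied little among replicates. Its level was 2177, 2270 and 2206 CPM with DMSO and 1454, 1252 and 1299 CPM with abemaciclib. The ranges were far apart. The mean fell from 2218 ± 47.7 to 1335 ± 106 CPM, a log2 fold change of −0.73 (SE 0.086, adjusted p = 1.3e-07).

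TUBB4B (ENSG00000188229, chr9:137241287-137243707, plus strand), a widely expressed isotype that is also found in cilia, gave 583, 617 and 546 CPM with DMSO. With abemaciclib it gave 369, 331 and 313 CPM, all under the lowest control. The log2 fold change was −0.79 (SE 0.095, adjusted p = 2.61e-07), close to that of TUBB. FAM166A overlaps 24.8% of the last 500 bases of TUBB4B on the opposite strand and held 2 counts in all, both in a DMSO library.

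TUBB6 (ENSG00000176014, chr18:12307669-12344320, plus strand), the class V isotype, was a minor beta gene, at 74.5, 82.9 and 87.8 CPM with DMSO and 37.2, 40.5 and 43.8 CPM with abemaciclib. The groups were separate and each was narrow. The mean was 2.02-fold lower with the drug, 40.5 ± 3.28 against 81.8 ± 6.72 CPM (log2 fold change −1.01, SE 0.14, adjusted p = 2.76e-06).

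TUBB2A (ENSG00000137267, chr6:3153497-3157544, minus strand), a class II isotype abundant in brain, went the other way. Its DMSO libraries held 47.9, 41.3 and 38.5 CPM, and its abemaciclib libraries 48.7, 61.7 and 78.6 CPM. The lowest treated library was only just above the highest control. The log2 fold change was 0.57 (SE 0.17, adjusted p = 0.012), and this call was the least firm of the 7: it was lost when DMSO replicate 2 (0.54, adjusted p = 0.0562), DMSO replicate 3 (0.50, adjusted p = 0.0598) or abemaciclib replicate 3 (0.38, adjusted p = 0.0983) was left out.

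TUBB2B (ENSG00000137285, chr6:3223324-3231730, minus strand), the neighbouring class II gene, had 1, 2 and 2 counts with DMSO and 7, 1 and 5 with abemaciclib. A count of 0 allows up to 3 counts, or 0.740 to 0.909 CPM in these libraries. All 3 DMSO libraries and abemaciclib replicate 2 were under that limit and the other abemaciclib libraries above it, the groups overlapped, and no fold change is given. TUBB3 (ENSG00000258947, chr16:89921392-89938761, plus strand), the neuronal class III isotype, was listed at 0 in all 6 libraries. Of its last 500 bases 99% also lie in another gene on the same strand, ENSG00000198211, which was at 0 as well, so the 0 of TUBB3 gives no limit on its mRNA.

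**Figure D2:**
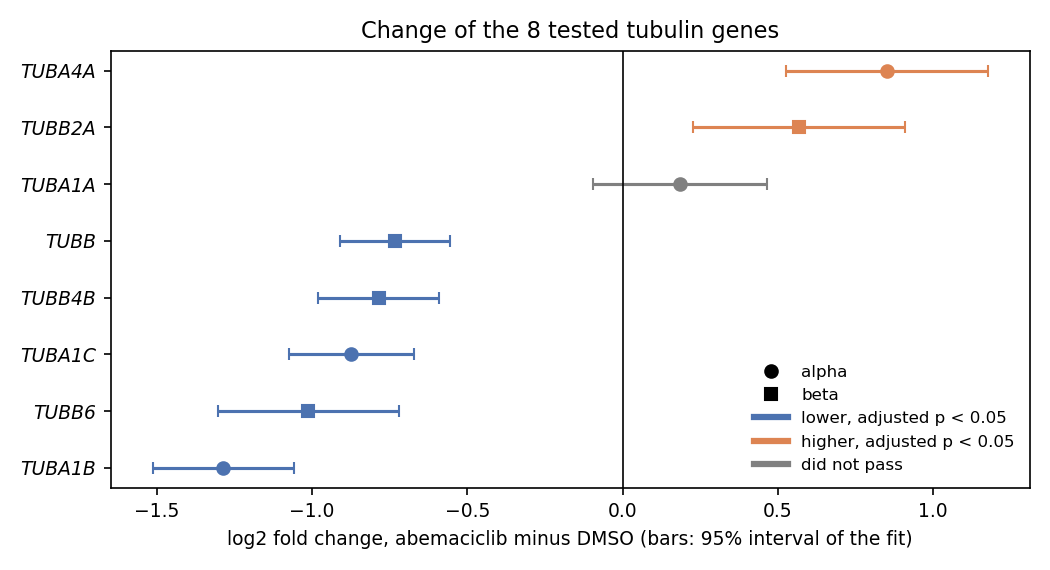
The log2 fold change of each tested tubulin gene, abemaciclib minus DMSO, with the 95% interval of the edgeR fit; circles are alpha genes, squares are beta genes and colour marks the call. Estimates run from −1.29 for TUBA1B to 0.85 for TUBA4A, and only the interval of TUBA1A, −0.10 to 0.46, spans 0.

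Alpha and beta genes were found in both directions. Each type had a single member that rose, beside 2 alpha and 3 beta genes that fell. By level, the 4 most abundant members with DMSO all fell, and among the 4 scarcer ones TUBB6 fell, TUBA4A and TUBB2A rose and TUBA1A did not pass the test. By position, the 3 alpha genes on chromosome 12 included the gene that fell most and TUBA1A, which did not pass.

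The order of levels differed between the groups. In DMSO, TUBB ranked 47 and TUBA1B 50 among the 10863 genes tested, and their library ranges overlapped, so the order of this pair was not resolved. With abemaciclib TUBB ranked 77 and TUBA1B 126, and every TUBB value was above every TUBA1B value. TUBA1C moved from rank 158 to 358 and TUBB4B from 212 to 425. TUBA1C was above TUBB4B in DMSO without overlap, whereas with abemaciclib the ranges of that pair overlapped. TUBA1A moved from rank 1245 to 1078, TUBB6 from 2104 to 3893, TUBB2A from 3808 to 2705 and TUBA4A from 3907 to 2335. Within the alpha genes the order TUBA1B, TUBA1C, TUBA1A, TUBA4A held in all 6 libraries. Within the beta genes TUBB6 was above TUBB2A in every DMSO library and under it in every abemaciclib library. The count ratio of TUBB2A to TUBB6 was 0.642, 0.498 and 0.438 with DMSO and 1.31, 1.52 and 1.80 with abemaciclib (p = 0.1 in a two-sided exact permutation test, which cannot go lower with 3 libraries against 3).

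Adding the genes of each type gave the tubulin mRNA pool. The summed alpha level was 3485, 3008 and 2705 CPM with DMSO and 1392, 1339 and 1798 CPM with abemaciclib, a mean 50.8% lower (exact permutation p = 0.1, n = 3 per group). The summed beta level was 2883, 3012 and 2879 CPM with DMSO and 1911, 1685 and 1736 CPM with abemaciclib, a mean 39.2% lower (exact permutation p = 0.1). Neither pair of groups overlapped. The 10 members took 0.556 to 0.632% of all counts in the DMSO libraries and 0.305 to 0.343% in the abemaciclib libraries.

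Because alpha and beta proteins pair in the dimer, the ratio of their counts within each library was also taken. It was 1.21, 0.998 and 0.940 with DMSO and 0.728, 0.795 and 1.04 with abemaciclib. The groups overlapped through abemaciclib replicate 3. The means were 1.05 ± 0.14 with DMSO and 0.853 ± 0.162 with abemaciclib (exact permutation p = 0.3, n = 3 per group). This test cannot give less than 0.1, so it cannot decide whether the ratio was kept. The difference was −0.196 with all libraries and −0.287 without abemaciclib replicate 3. The ratio of TUBA1B to TUBB, the leading gene of each type, was 1.16, 0.941 and 0.851 with DMSO and 0.558, 0.633 and 0.830 with abemaciclib (exact permutation p = 0.1), with its groups apart by a narrow gap.

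**Figure D3:**
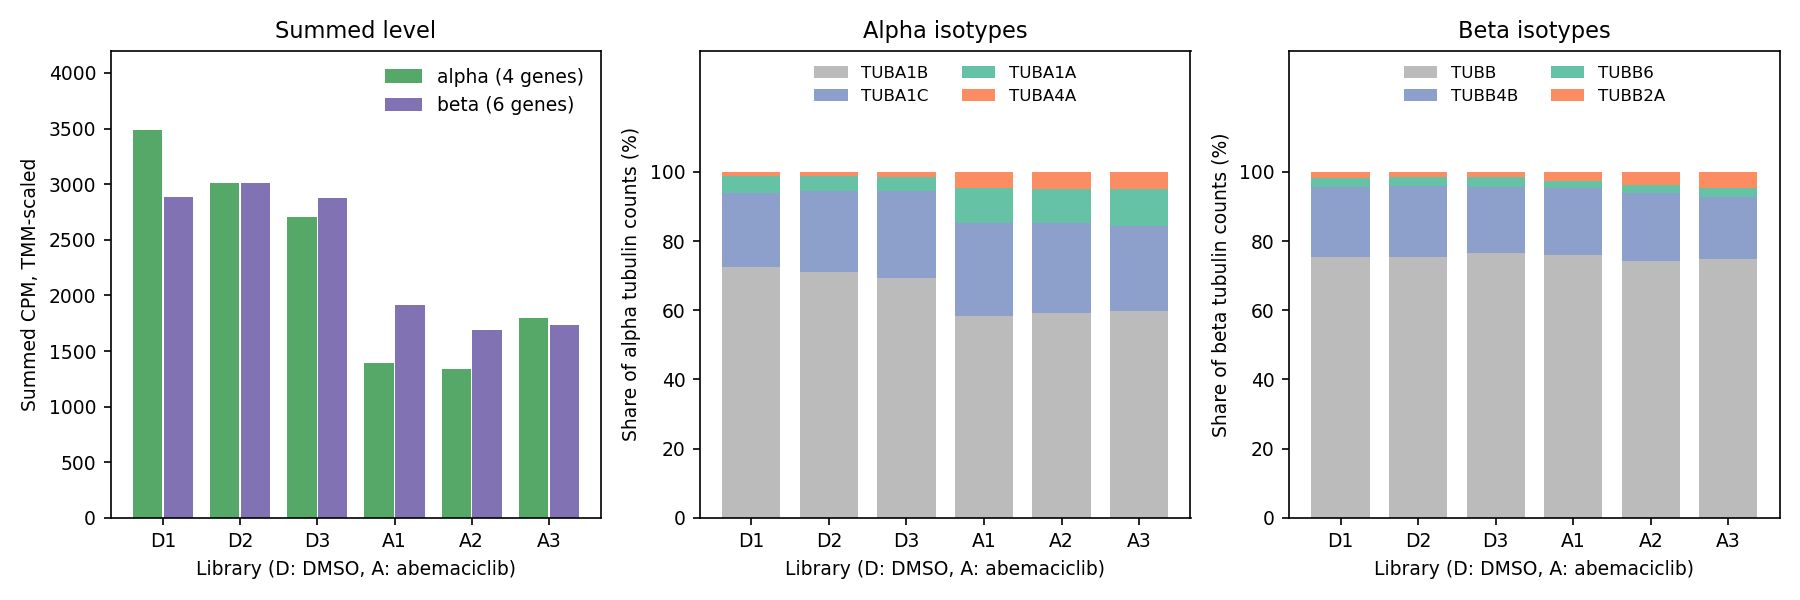
Left, summed CPM of the 4 alpha and 6 beta genes in each library (D, DMSO; A, abemaciclib); middle and right, the share of each isotype in the alpha and beta counts, in percent. The summed bars are lower in A1 to A3, the TUBA1B share is between 69.4 and 72.4% in D1 to D3 and between 58.3 and 59.9% in A1 to A3, and the TUBB share stays between 74.3 and 76.6%.

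The alpha counts were divided among the isotypes differently in the groups. TUBA1B made up 72.4, 71.0 and 69.4% of alpha counts with DMSO and 58.3, 59.2 and 59.9% with abemaciclib. The share of TUBA1A was 4.41 ± 0.34% and then 10.2 ± 0.28% and that of TUBA4A 1.34 ± 0.22% and then 4.88 ± 0.18% (SD, n = 3), without overlap. The share of TUBA1C, 23.3 ± 1.71% and 25.8 ± 1.19%, overlapped between groups. The count ratio of TUBA1B to TUBA1A was 16.1 ± 0.93 with DMSO and 5.79 ± 0.12 with abemaciclib, and that of TUBA1B to TUBA1C 3.06 ± 0.29 and 2.30 ± 0.14 (exact permutation p = 0.1 for each, n = 3 per group).

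In the beta pool TUBB held 75.8 ± 0.69% of counts with DMSO and 75.1 ± 0.92% with abemaciclib, and TUBB4B held 19.9 ± 0.82% and 19.0 ± 0.85%. Both overlapped between groups, as did the ratio of TUBB to TUBB4B, 3.82 ± 0.20 and 3.95 ± 0.18 (exact permutation p = 0.4, n = 3 per group). The minor isotypes did not overlap: TUBB2A took 1.46 ± 0.18% and then 3.58 ± 0.99%, and TUBB6 2.80 ± 0.24% and then 2.29 ± 0.30%. In exact permutation tests of 9 shares the adjusted p was 0.18 for TUBA1A, TUBA1B, TUBA4A, TUBB2A and TUBB6, which is the value their raw p of 0.1 gave, and 0.3 or more for the other shares. Counting error was at most ± 1.42 percentage points for any share in any library (half-width of Wilson 95% intervals). These intervals were apart between the groups for TUBA1A, TUBA1B, TUBA4A and TUBB2A, whereas for TUBA1C, TUBB, TUBB2B, TUBB4B and TUBB6 intervals of some DMSO and abemaciclib libraries overlapped.

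Reads of near-identical copies could be counted in the wrong gene. The table had 51 rows of tubulin pseudogenes, and 4 of them held a count, together 1.31 to 1.52% of the members' counts in each library. TUBBP1, a copy of TUBB, held most of these, with 266, 253 and 248 counts with DMSO and 134, 150 and 153 with abemaciclib. Its log2 fold change was −0.94 (SE 0.14, adjusted p = 8.57e-06), and its counts were 2.79 to 3.54% of those of TUBB. TUBA5P, with 11 to 30 counts in a library, did not pass the test (−0.84, adjusted p = 0.186), and TUBBP5 and TUBAP2 held 32 and 7 counts in all. In the reference genome each of 21 overlapping windows of 100 bases from the last 300 bases of every member occurred in 1 place on the primary chromosomes. Only exact matches were counted, so the search does not cover copies that differ from a window by any base.

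The promoters of the members that fell and rose were compared next, from RefSeq (GRCh38.p14), 250 bases before to 50 after the annotated start. Promoters of genes that peak in late cell cycle often hold a cell cycle genes homology region, the CHR, read as TTTGAA or TTCGAA and bound by the DREAM complex, with CCAAT boxes nearby that bind NF-Y. In the sequences below, capitals mark TTTGAA and CCAAT in the sense of the gene. TUBA1C (start 3 of 3, chr12:49264832-49265131, plus strand) and TUBB4B (chr9:137241037-137241336, plus strand) are shown as members that fell and held both, TUBA1B (chr12:49131346-49131645, minus strand) as the member that fell most, and TUBA4A (chr2:219253869-219254168, minus strand) and TUBB2A (chr6:3157495-3157794, minus strand) as those that rose.
TUBA1C: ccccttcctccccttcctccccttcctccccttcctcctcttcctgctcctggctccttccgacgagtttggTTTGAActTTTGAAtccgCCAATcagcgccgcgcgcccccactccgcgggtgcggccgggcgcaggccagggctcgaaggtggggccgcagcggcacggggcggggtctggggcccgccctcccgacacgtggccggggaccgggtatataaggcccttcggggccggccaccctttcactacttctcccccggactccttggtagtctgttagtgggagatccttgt
TUBB4B: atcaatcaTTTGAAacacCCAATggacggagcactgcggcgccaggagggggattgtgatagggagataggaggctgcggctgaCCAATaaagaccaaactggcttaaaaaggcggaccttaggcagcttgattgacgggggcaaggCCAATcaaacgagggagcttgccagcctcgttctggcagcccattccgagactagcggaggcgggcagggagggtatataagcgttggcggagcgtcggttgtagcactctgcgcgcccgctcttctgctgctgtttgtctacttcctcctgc
TUBA1B: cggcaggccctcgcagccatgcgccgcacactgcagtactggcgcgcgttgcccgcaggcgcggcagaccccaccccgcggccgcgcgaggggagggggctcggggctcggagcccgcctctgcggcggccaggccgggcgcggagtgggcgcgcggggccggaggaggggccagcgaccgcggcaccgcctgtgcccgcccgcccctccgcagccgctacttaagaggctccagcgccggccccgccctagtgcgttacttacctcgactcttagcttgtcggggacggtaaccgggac
TUBA4A: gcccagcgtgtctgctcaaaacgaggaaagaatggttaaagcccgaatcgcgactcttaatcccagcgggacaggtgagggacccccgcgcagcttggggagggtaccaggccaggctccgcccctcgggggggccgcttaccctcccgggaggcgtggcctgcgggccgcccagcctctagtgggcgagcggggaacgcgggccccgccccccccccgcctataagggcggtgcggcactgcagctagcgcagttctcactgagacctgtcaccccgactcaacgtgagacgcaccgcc
TUBB2A: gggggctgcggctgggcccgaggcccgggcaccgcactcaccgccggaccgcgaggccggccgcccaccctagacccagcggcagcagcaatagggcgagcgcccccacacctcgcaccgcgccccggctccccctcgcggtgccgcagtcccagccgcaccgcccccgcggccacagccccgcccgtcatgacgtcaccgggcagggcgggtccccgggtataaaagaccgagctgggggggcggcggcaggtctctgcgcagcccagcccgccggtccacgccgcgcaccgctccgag
In TUBA1C the TTTGAA copies began 178 and 170 bases before this start, with a CCAAT 160 bases before it. In TUBB4B a TTTGAA began 242 bases before the start, with CCAAT at 232, 166 and 103 bases before it. The promoters of TUBA1B, TUBA4A and TUBB2A held none of the letters searched.

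All 10 members had a promoter in the RefSeq table, with 15 starts in all, and both strands were searched. TTTGAA was in all 3 starts of TUBA1C and in TUBB4B, and TTCGAA in 1 of the starts of TUBB3. CCAAT without either was in TUBA1A and TUBB2B, and in 1 of the starts of TUBB and of TUBB6. Among 35116 promoters of the same length, 15.2% held TTTGAA, 1.45% TTCGAA, 34.6% CCAAT and 6.38% a CHR sequence together with CCAAT. The E2F letters TTTCCCGC, TTTGGCGC, TTTCGCGC and TTTGCCGC, present in 3.31% of all promoters, were in no member start. Of the 5 members that fell, 2 held TTTGAA in at least 1 start, and neither of the 2 that rose did. Of those that fell, TUBA1C, TUBB and TUBB6 had 3, 2 and 2 starts searched, whereas TUBA4A and TUBB2A had 1 each. The shares above are per promoter and this count is per gene, so no contrast is drawn from it. A match describes the letters only, and binding was not measured in these libraries.

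**Figure D4:**
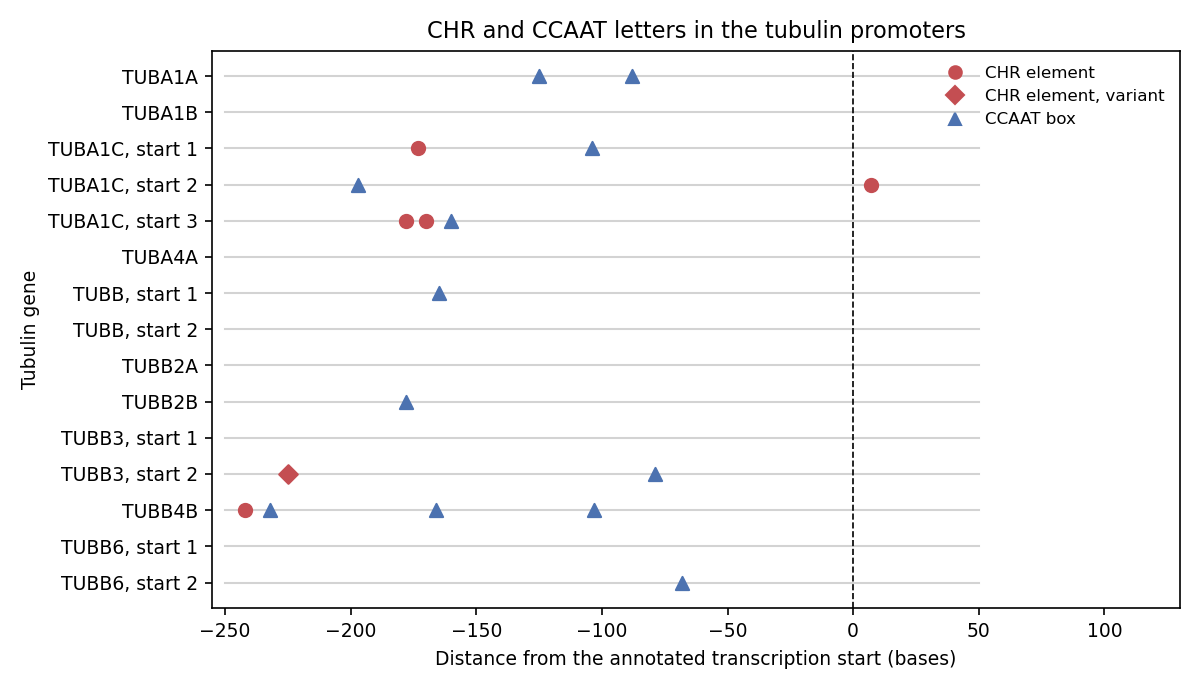
Position of CHR letters (TTTGAA, circles, and TTCGAA, diamond) and CCAAT (triangles) in the 15 annotated promoters of the 10 tubulin genes, in bases from the transcription start (dashed line). TUBA1C and TUBB4B carry TTTGAA, TUBB3 carries TTCGAA, and the lines of TUBA1B, TUBA4A and TUBB2A are empty.

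The other alpha and beta tubulin genes had few counts. Of the 9, TUBA3D and TUBB4A entered the test. TUBA3D, a testis-enriched alpha gene, had 1, 6 and 6 counts with DMSO and 16, 28 and 32 with abemaciclib, a log2 fold change of 2.37 (SE 0.57, adjusted p = 0.00232). TUBA3E, nearly identical to it, had 3 counts in all with DMSO and 4, 27 and 5 with abemaciclib, and reads may be split between the pair. TUBB4A, a beta isotype of neurons and oligodendrocytes, had 10 to 28 counts in a library and overlapping groups (0.49, adjusted p = 0.467). TUBAL3 had 1 count, TUBB1 had 2 in each of 2 abemaciclib libraries, and TUBA3C, TUBA8, TUBB8 and TUBB8B were at 0.

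Genes that nucleate, fold, modify and bind tubulin moved in both directions. Of 117 genes in 7 lists written from general knowledge, 91 were tested, of which 18 fell and 6 rose, beside 13.3% and 12.5% of all genes tested. The median log2 fold change over the 91 was −0.20. Counts for the single lists below are to be read beside the same shares, and no list was tested as a set.

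**Figure D5:**
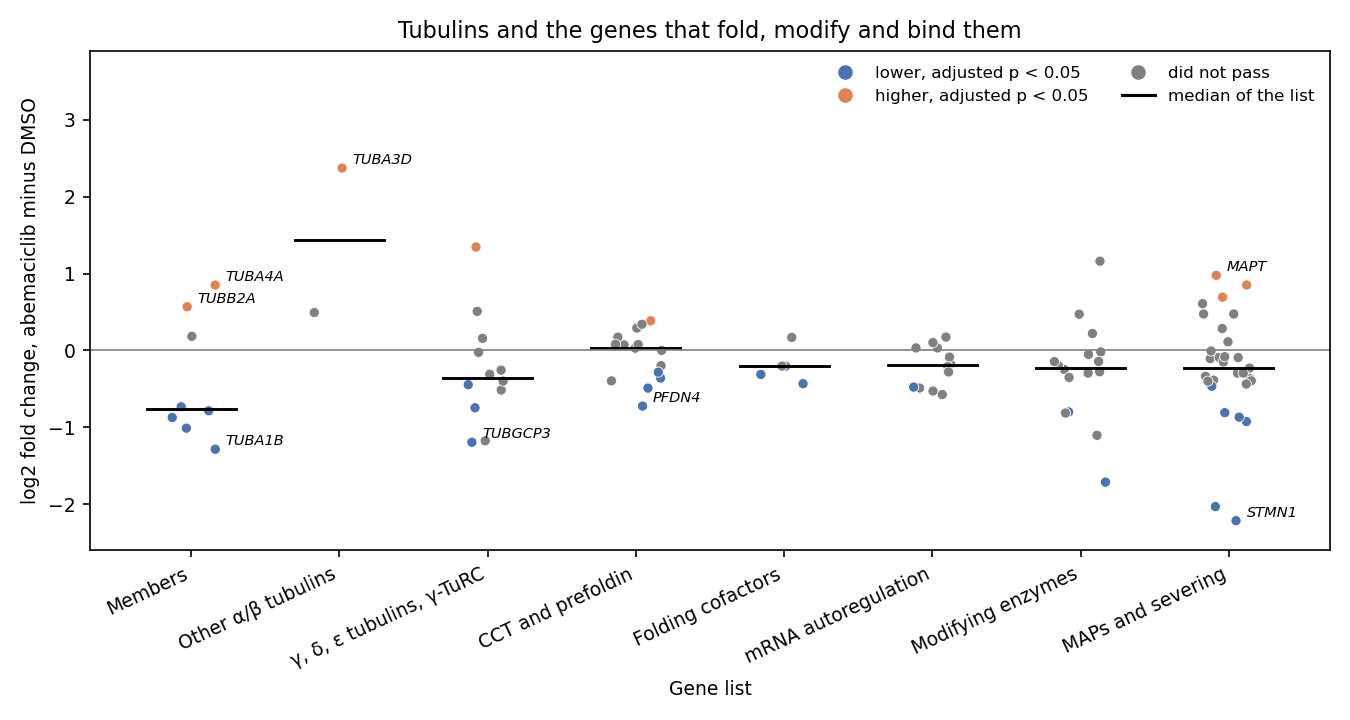
The log2 fold change, abemaciclib minus DMSO, of the 8 tested members and of the tested genes of 7 related lists; each point is a gene, colour marks the call and the black line is the median of the list. The medians are −0.76 for the members, −0.23 for the proteins that bind or sever microtubules and 0.03 for CCT and prefoldin, and STMN1 is the lowest point, at −2.22.

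Of 12 tested genes for gamma, delta and epsilon tubulin and for the gamma-tubulin ring complex, the template from which microtubules grow, 3 fell and 1 rose. TUBG1, the main gamma tubulin gene, fell from 133.0 ± 14.3 to 97.6 ± 7.42 CPM (log2 fold change −0.45, adjusted p = 0.00542). TUBGCP3, a core subunit of the complex, fell further (−1.19, adjusted p = 0.000276), and TUBGCP4 by less (−0.75, adjusted p = 0.00107). TUBGCP6 was the gene that rose (1.35, adjusted p = 0.0134), with 13 to 18 counts in a DMSO library and 18 to 55 in an abemaciclib library. Unlike the other genes named here, its groups overlapped in CPM, through abemaciclib replicate 1.

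New tubulin chains are passed by prefoldin to the CCT chaperonin and then joined into dimers by the cofactors TBCA to TBCE. Of 15 CCT and prefoldin genes, 4 fell and 1 rose, with a median of 0.03. The prefoldin gene PFDN4 fell (log2 fold change −0.72, adjusted p = 3.99e-05), whereas PFDN5, of the same complex, rose (0.39, adjusted p = 0.00525). The CCT subunit genes CCT5 (−0.49, adjusted p = 0.000236) and CCT4 (−0.36, adjusted p = 0.0219) fell. Of 5 cofactor genes tested, TBCD (−0.43, adjusted p = 0.00316) and TBCB (−0.31, adjusted p = 0.0258) fell and none rose.

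Of 12 genes of the mRNA autoregulation route, 1 fell, CNOT6L, a deadenylase of CCR4–NOT (−0.48, adjusted p = 0.021). TTC5, the factor that recognises the nascent tubulin peptide, held 59, 78 and 73 counts with DMSO and 51, 58 and 80 with abemaciclib and did not pass (−0.28, adjusted p = 0.429). Of 16 tested tubulin-modifying enzyme genes, 2 fell and none rose. Over all genes tested 13.3% fell and 12.5% rose, so neither of these 2 lists held a larger share of falls. The enzyme genes that fell were VASH2 (−1.71, adjusted p = 0.0428) and SVBP (−0.80, adjusted p = 0.0126), the catalytic subunit and the partner of a carboxypeptidase that removes the final tyrosine of alpha tubulin. VASH2 had few counts, 13, 16 and 19 with DMSO and 0, 8 and 8 with abemaciclib.

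Of 29 tested genes for proteins that bind or sever microtubules, 6 fell and 3 rose. STMN1, or stathmin, which holds tubulin dimers out of the polymer, fell from 646.4 ± 57.7 to 139.2 ± 11.0 CPM (log2 fold change −2.22, adjusted p = 3.97e-16), a larger estimate than for any tubulin member. The severing enzyme genes KATNAL1 (−2.03, adjusted p = 0.00679) and FIGN (−0.93, adjusted p = 0.0296) fell from low levels, with at most 24 and 54 counts in a library. MAPT, which encodes the microtubule-stabilising protein tau, rose from 199.4 ± 10.5 to 392.6 ± 13.6 CPM (0.98, adjusted p = 5.74e-09). MAP1LC3B, better known as a marker of autophagosomes (0.85, adjusted p = 0.000685), and STMN3, a relative of STMN1 (0.69, adjusted p = 2.87e-05), also rose.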

How the data were processed

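The 6 RNA libraries of parental ZR-75-1 cells were grouped by the treatment in the labels, with replicate numbers from the same labels. The deposited values are raw counts per gene, which the authors made with featureCounts 2.0.1 and a GENCODE annotation from 3′ mRNA reads that BBDuk had trimmed and STAR 2.7.5b had placed on hg38. The strand setting and the treatment of reads that match several places are not given in the sources used here. The labels do not say whether replicates came from separate cultures, but the study describes its cell line RNA-seq as made from independent ones. Replicates of a group differed by more than sampling noise (chi-square over degrees of freedom 2.82 to 7.31). The highest values, 6.86 and 7.31, were those of abemaciclib replicate 3 against replicates 1 and 2, which gave 3.45 against each other. Libraries held 3317860 to 4013156 counts. No molecular identifiers are described, so limits and intervals cover counting error only.

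Symbols were matched by identifier for 60401 of 60656 genes, and 255 had none. Coordinates are from GRCh38 in a later GENCODE release. Abemaciclib was compared with DMSO by edgeR 4.0.16 under R 4.3.3 (genes kept by filterByExpr, scaling by TMM, then glmQLFit and glmQLFTest), with p adjusted by Benjamini–Hochberg over 10863 genes and a threshold of 0.05, after the script was tested on simulated counts. The biological coefficient of variation was 13.2%. Sums, ratios and shares were compared by exact two-sided permutation tests, in which 3 against 3 libraries cannot give less than 0.1. Same-numbered libraries did not deviate together (correlations −0.049, 0.007 and −0.096), so numbers were not taken as pairs.

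The members and the gene lists were chosen with earlier results of these data known. All members were named, and from each related list up to 3 genes that rose most and up to 3 that fell most, past the threshold and with groups that did not overlap; TUBGCP6 and TTC5 were named after their values were seen. Alternatives were other scalings, filters on low counts, DESeq2 1.42.0, a replicate block, leaving out each library and adding pseudogene counts to the member they are named after. Of the rows added this way only TUBBP1 and TUBBP5 held counts, and both went to TUBB. TUBA5P and TUBAP2 were added to no member.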

Additional observations from a re-analysis of the deposited data

How the results depend on the processing

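The 5 members that fell and TUBA4A passed the threshold under every alternative run: DESeq2's size factors or total counts as the scaling, no filter or a minimum of 10 counts in every library, DESeq2's own test, pseudogene counts added, the replicate block, and any library left out. TUBA1A passed under none, with log2 fold changes of 0.01 to 0.34. Adding pseudogene counts changed the counts of TUBB alone, so for the other members that alternative was not a check. Leaving out a library moved the number of members that rose between 1 and 2, since TUBB2A ranged from 0.38 to 0.72 and lost its call without DMSO replicate 2 (0.54), DMSO replicate 3 (0.50) or abemaciclib replicate 3 (0.38). Of the related genes, 10 to 18 fell when a library was left out, with 10 without DMSO replicate 2 and 11 without abemaciclib replicate 2. The cause of these losses was not tested. Of 104 alternative log2 fold changes of the 8 tested members, all but these 3 of TUBB2A kept their direction and side of the threshold. In the replicate block fit, 1139 genes rose and 1280 fell, and no member changed its call (TUBB2A 0.55, adjusted p = 0.0334 in edgeR). With 3 libraries per group the permutation tests of sums, ratios and shares could not pass 0.05 under any setting, so their p-values say nothing about stability.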
